A study of Drosophila melanogaster with 46 samples.

Results

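*vrille* (*vri*), *PAR-domain protein 1* (*Pdp1*), *clockwork orange* (*cwo*) and *cycle* (*cyc*) are the 4 clock genes described here, taken by symbol from a table of raw read counts for 17490 genes, of which 9969 passed a filter on low expression. All 4 genes passed it. RNA was from fly heads in 46 libraries: 12 from *inc1* at Day 27, 12 from *wakeD2* at Day 27, 12 from *WT-old* at Day 49 and 10 from *WT* at Day 27. *inc1* carries a mutation in *insomniac* (*inc*) and *wakeD2* one in *wide awake* (*wake*). Both are sleep mutants that had been backcrossed to the isogenic strain *Canton-S w1118* (*iso1CJ*), which is *WT* itself and, at the older age, *WT-old*. All flies were kept in light-dark cycles, and each library was 1 pool of heads of mixed sexes, collected every 4 h from ZT0 to ZT44, where ZT0 is lights on. For *WT*, the libraries of ZT28 and ZT40 were not analysed here. No timepoint was sampled in more than 1 pool per group, so the timepoints of a group, and the same hour on both sampling days, served as its replicates.

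In the fly clock, the proteins CLOCK and CYCLE bind as a pair to E-box sequences and switch on *per*, *tim*, *vri*, *Pdp1* and *cwo*. PER and TIM then block that pair, which closes the first loop, while VRI represses and PDP1 activates the *Clk* gene, which forms the other loop. CWO binds the same E-boxes and represses the genes they drive, and *cyc* RNA is known as a clock component that does not cycle. *Pdp1* makes several isoforms, of which only some act in the clock, and the counts sum all of them.

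Positions are those of the Release 6 assembly. *vri* (FBgn0016076) lies on chromosome 2L from 5288944 to 5311223 on the plus strand, and *Pdp1* (FBgn0016694) on chromosome 3L from 7811458 to 7867369 on the minus strand, with 13 annotated transcripts. *cwo* (FBgn0259938) lies on chromosome 3R from 10388258 to 10400752 on the plus strand. *cyc* (FBgn0023094) lies on chromosome 3L from 19813770 to 19815938 on the minus strand. Whether any of their exons overlap an exon of another annotated gene was not examined. Total counts per library ranged from 12630462 to 28906177 in *inc1*, 20037165 to 28176695 in *wakeD2*, 16994798 to 29802881 in *WT-old* and 20118067 to 27569604 in *WT*. The smallest count of any of the 4 genes in a library was 449, for *cyc* in *inc1*.

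Values that stand apart from the labels bear on several of the results. The mutated genes fitted their labels: *inc* was at 8.55 to 15.1 CPM in *inc1* and 66.6 to 104.4 CPM in *WT*, and *wake* at 36.1 to 52.1 CPM in *wakeD2* and 66.2 to 80.1 CPM in *WT*. Accessory gland markers, which heads should lack, had a median over 1 CPM in 4 of 12 *inc1*, 11 of 12 *wakeD2*, 1 of 12 *WT-old* and 3 of 10 *WT* libraries. Testis and midgut markers had a median over 1 CPM in as many libraries of each group, and ovary markers in 0. Midgut markers summed to as much as 1202 CPM in *wakeD2*, so the libraries named below by accessory gland markers also held other body tissue. The 3 yolk protein genes, made by females, summed to 101.4 to 6538 CPM in the 6 dark-hour libraries of *WT-old* (ZT12, ZT16, ZT20 and the same hours on the next day) and 42250.0 to 65480.0 CPM in its 6 light-hour libraries. They summed to 69126.7 to 136187 CPM in *inc1* (median 93134.7), 60639.9 to 98720.3 CPM in *wakeD2* (median 78663.4) and 45996.1 to 74226.7 CPM in *WT* (median 63688.7). The male-specific *roX* RNAs summed to 1281.0 to 1360.0 CPM at the dark hours of *WT-old* and 623.1 to 830.0 CPM at its light hours. Their medians were 649 CPM in *inc1*, 597 CPM in *wakeD2* and 775 CPM in *WT*. The yolk sum was thus higher and the *roX* sum lower in both mutants, and the part of this in the level results of the mutants was not tested. In *WT-old*, then, hour of day and share of female heads cannot be told apart, and its results are given with that limit.

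Levels are given as CPM, read counts relative to the total of their library, which was scaled by edgeR's TMM method. Because whole heads were used, fewer cells of a type and less RNA per cell cannot be told apart. Per kilobase of merged exon, the mean over hours was highest for *Pdp1* and lowest for *cyc* or *cwo* in each group. For *Pdp1* it was 69.8 CPM per kilobase in *inc1*, 57.5 in *wakeD2*, 54.3 in *WT-old* and 61.6 in *WT*. For *vri* it was 43.7, 47.3, 47.6 and 46.7 CPM per kilobase in the same order of groups. *cwo* was at 25.3, 25.5, 21.8 and 23.6 CPM per kilobase and *cyc* at 25.9, 24.3, 24.7 and 24.0, so that *cwo* and *cyc* stood close to each other and below *vri* and *Pdp1* in every group.

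**Figure D1:**
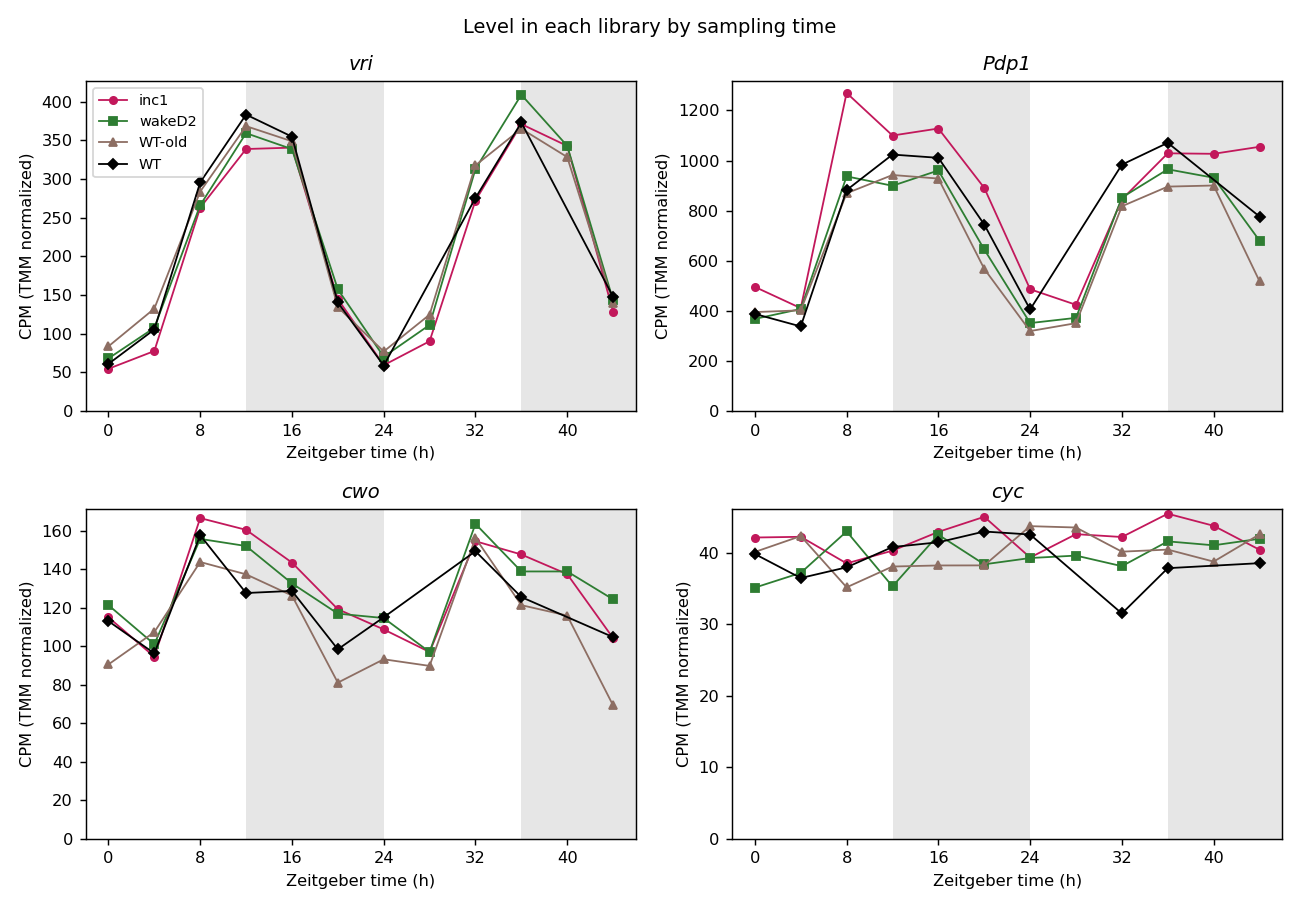
CPM of *vri*, *Pdp1*, *cwo* and *cyc* (vertical axes, from 0) in each of the 46 libraries by Zeitgeber time in hours, with dark hours shaded and 1 line for each group. *vri* and *Pdp1* rise and fall with the light-dark cycle in all 4 groups, *cwo* does so over a smaller range, and *cyc* stays between 31.5 and 45.5 CPM.

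Daily rhythm was examined first in *vri*, the repressor of *Clk*. It oscillated strongly in every group. The lowest, median and highest libraries were at 54.7, 204 and 371 CPM in *inc1*, and at 68.1, 212 and 409 CPM in *wakeD2*. They were at 77.1, 212 and 369 CPM in *WT-old* and at 58.8, 212 and 383 CPM in *WT*. Low libraries were those of ZT0 and ZT24 and high ones those of ZT12, ZT16 and ZT36 in each group. The highest library of a sampling day was the one at lights off in 7 of 8 group-days, and the one 4 h later in the remaining one. A 24 h cosine on log2 CPM had an amplitude (from mid-level to peak) of 1.41 ± 0.093 in *inc1*, 1.27 ± 0.0775 in *wakeD2*, 1.15 ± 0.0684 in *WT-old* and 1.36 ± 0.109 in *WT* (standard error, n = 12, 12, 12 and 10). The fitted peak was at 12.83 ± 0.252, 12.61 ± 0.233, 12.26 ± 0.227 and 12.61 ± 0.32 h. The same hour on both days differed by a median of 0.124, 0.0912, 0.0876 and 0.0633 on the log2 scale, far below those amplitudes. By edgeR's quasi-likelihood test of the 24 h terms with Benjamini-Hochberg adjustment over 9969 genes, adjusted p was 7.8e-14 in *inc1*, 9.0e-13 in *wakeD2*, 5.9e-12 in *WT-old* and 1.9e-12 in *WT*.

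*Pdp1*, the activator of *Clk*, also oscillated in every group, with a broader top. The lowest, median and highest libraries were at 411, 959 and 1270.2 CPM in *inc1*, and at 351, 767 and 965 CPM in *wakeD2*. They were at 319, 693 and 942 CPM in *WT-old* and at 338, 829.4 and 1071 CPM in *WT*. Mean CPM at ZT8, ZT12 and ZT16 lay close together in each group: the lowest of the 3 hours was at 98.2% of the highest hour in *inc1*, 94.6% in *wakeD2*, 91.8% in *WT-old* and 89.1% in *WT*. In *inc1* the ZT8 mean came from 1270 CPM at ZT8, in its library of lowest depth, and 845 CPM at ZT32. ZT36 and ZT40 of that second day were at 1029 and 1027 CPM. The groups spread after the plateau of ZT8 to ZT16. At ZT20, *Pdp1* kept 90.3% of its highest hour in *inc1*, 70.1% in *wakeD2*, 59.1% in *WT-old* and 72.6% in *WT*. The amplitude was 0.72 ± 0.137 in *inc1*, 0.78 ± 0.0918 in *wakeD2*, 0.80 ± 0.077 in *WT-old* and 0.83 ± 0.132 in *WT* (log2, standard error, n = 12, 12, 12 and 10). The peak was fitted at 14.1 ± 0.733, 13.2 ± 0.448, 12.9 ± 0.368 and 13.6 ± 0.569 h. The edgeR adjusted p of the 24 h terms was 0.00018 in *inc1*, 2.2e-05 in *wakeD2*, 4.1e-06 in *WT-old* and 7.6e-05 in *WT*.

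*cwo*, the repressor at E-boxes, had a shallower and earlier rhythm. The lowest, median and highest libraries were at 94.5, 128 and 167 CPM in *inc1* and at 97.0, 128 and 164 CPM in *wakeD2*. They were at 69.3, 112 and 156 CPM in *WT-old* and at 96.3, 120.3 and 158 CPM in *WT*. In 8 of 8 group-days the highest library was the one at ZT8 or ZT32, before the peak of *vri* in each group. The lowest hour was ZT4 in *inc1*, *wakeD2* and *WT* and ZT20 in *WT-old*. The level stepped up within 4 h, with means of 95.7 CPM at ZT4 and 161 CPM at ZT8 in *inc1*, and of 96.3 CPM at ZT4 and 153 CPM at ZT8 in *WT*, and then declined over the night. A single cosine followed this shape only in part: it took 71.6%, 57.3%, 78.0% and 54.7% of the variance in *inc1*, *wakeD2*, *WT-old* and *WT*, where for *vri* it took 95.8% or more. The edgeR adjusted p of the 24 h terms was 0.0070 in *inc1*, 0.087 in *wakeD2*, 8.4e-05 in *WT-old* and 0.15 in *WT*. A test of any difference among the 6 times of day, chosen after seeing the data, gave adjusted p of 3.6e-07, 8.1e-06, 9.2e-09 and 3.0e-05, past the threshold of 0.05 in all 4 groups. That test called 45.9%, 40.4%, 54% and 35.4% of all genes in these groups.

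*cyc*, which encodes the partner of CLOCK, had no detectable daily rhythm in any group. The lowest, median and highest libraries were at 38.5, 42.2 and 45.5 CPM in *inc1* and at 35.2, 39.5 and 43.0 CPM in *wakeD2*. They were at 35.2, 40.2 and 43.7 CPM in *WT-old* and at 31.5, 39.2 and 43.0 CPM in *WT*. The amplitude was 0.0361 ± 0.0309, 0.049 ± 0.0417, 0.076 ± 0.0337 and 0.124 ± 0.0485 on the log2 scale, and the same hour on both days differed by a median of 0.105 to 0.144. By edgeR, adjusted p was 0.92, 0.9997, 0.33 and 0.21 for the 24 h terms, and 0.88, 0.66, 0.44 and 0.23 among 6 times of day. Unadjusted p of the 24 h terms was under 0.05 in *WT* alone (0.025).

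In all, the 24 h test passed for 3 of the 4 genes in *inc1*, 2 in *wakeD2*, 3 in *WT-old* and 2 in *WT*. The same test called 5.04%, 5.95%, 19.3% and 6.19% of all 9969 genes in those groups. The share in *WT-old* is from the group whose dark-hour pools held few female heads, and the part of this in its rhythms was not tested. Of the other core genes *per*, *tim*, *Clk* and *cry*, 4 of 4 passed the 24 h test in every group by edgeR. Of 10 clock kinases, phosphatases and degradation factors, 0 passed it in any group. By the test among 6 times of day, several of these 10 did pass in each group. *tws* had adjusted p of 4.8e-08, 5.9e-07, 3.4e-06 and 1.7e-06 in *inc1*, *wakeD2*, *WT-old* and *WT*, while *CkIIalpha* passed in none (0.082 or higher). That test, chosen after seeing the data, called 45.9%, 40.4%, 54% and 35.4% of all genes. In the 24 h test an unadjusted p under 0.05 was reached by 1, 2, 1 and 1 of these 10 in *inc1*, *wakeD2*, *WT-old* and *WT*, and DESeq2 called 0, 1, 0 and 0. The share of all genes at that edgeR cut, or called by DESeq2, is not given here. An F test of the least-squares cosine on log2 CPM had unadjusted p under 0.05 in 11.6%, 13.9%, 26.8% and 14.3% of all genes in the same groups.

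**Figure D2:**
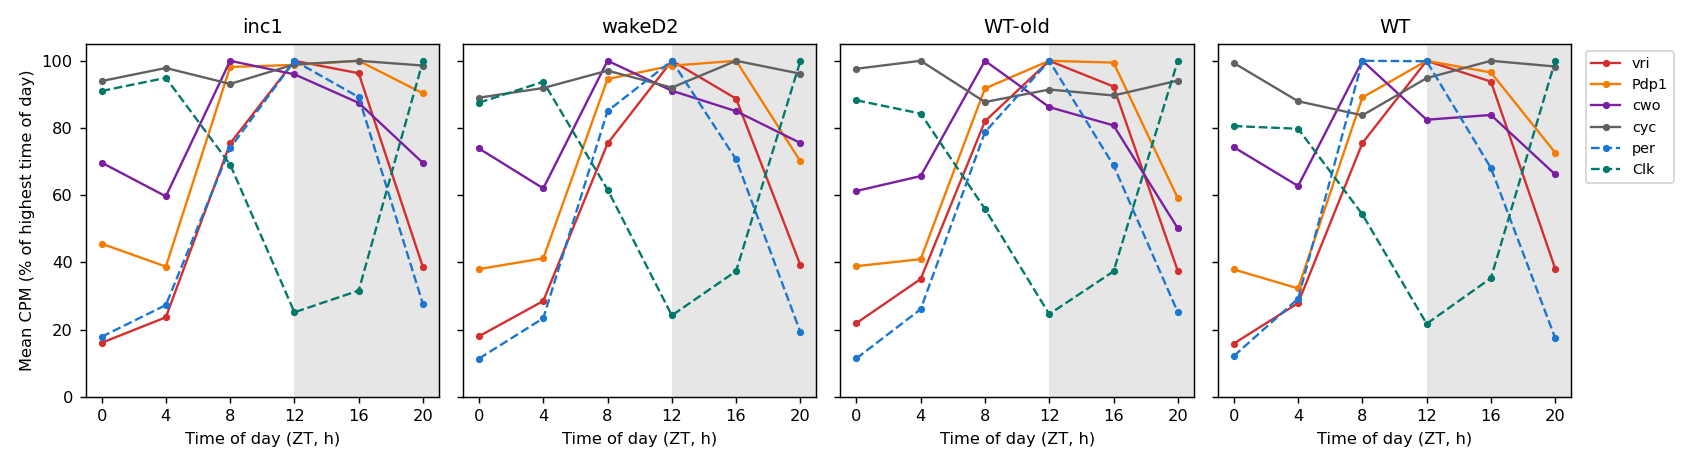
Mean CPM at each of 6 times of day, as a percentage of the gene's highest hour (vertical axis, from 0), for the 4 genes and for *per* and *Clk* (dashed) in each group, with the dark hours shaded. *cwo* tops out at ZT8, *vri* at ZT12, and *Clk* is lowest at ZT12 in all 4 groups.

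*Clk* was lowest at the hour when *vri* was highest, ZT12, at 25.1%, 24.2%, 24.6% and 21.7% of its own highest hour in *inc1*, *wakeD2*, *WT-old* and *WT*. Across the 46 libraries, after each group's mean was subtracted, Pearson's r of *vri* was 0.951 with *per*, 0.931 with *gol*, a gene of the *goliath* ring finger family, and 0.923 with *tim*, the 3 highest of all genes. *Pdp1* was nearest to *tim* (r = 0.958), *vri* (0.918) and the matrix metalloproteinase gene *Mmp1* (0.889). *cwo* was nearest to *Cipc* (0.827), *gol* (0.810) and *CG6928* (0.784). *cyc* had no near neighbour: its highest r were 0.661 with *Grx5*, 0.655 with *ND-B16.6* and 0.648 with *CG34213*. With *Clk*, r was -0.820 for *vri*, -0.692 for *Pdp1*, -0.635 for *cwo* and 0.053 for *cyc*. These are descriptions over libraries that share time of day.

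Whether the rhythm itself differed between groups was tested by the interaction of group with the 24 h terms. None of the 4 genes passed in any of the 4 comparisons, with adjusted p of 0.62 or higher in all 16 tests. The test called 0.0301%, 0%, 1.72% and 0.01% of all genes in *inc1*, *wakeD2* and *WT-old* against *WT* and in *wakeD2* against *inc1*. Unadjusted p under 0.05 was reached in 0 of the 16 tests by edgeR and in 0 by DESeq2. *per*, *tim*, *Clk* and *cry* also had no call by edgeR, the smallest adjusted p being 0.187, while DESeq2 called 1 of these 4, *per*, in *inc1* against *WT* (adjusted p = 0.024). The interaction test fits 1 cosine per group, so a daily shape that departs from it counts as spread and weakens the test. For *Pdp1* the 24 h terms took 75.1% of the variance in *inc1* and 85.5% in *WT*, against 93.7% and 98.0% with 12 h terms. With 12 h terms added, none of the 4 genes passed either. With the collection timepoint as a block, *vri* in *WT-old* against *WT* had an edgeR adjusted p of 0.047.

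**Figure D3:**
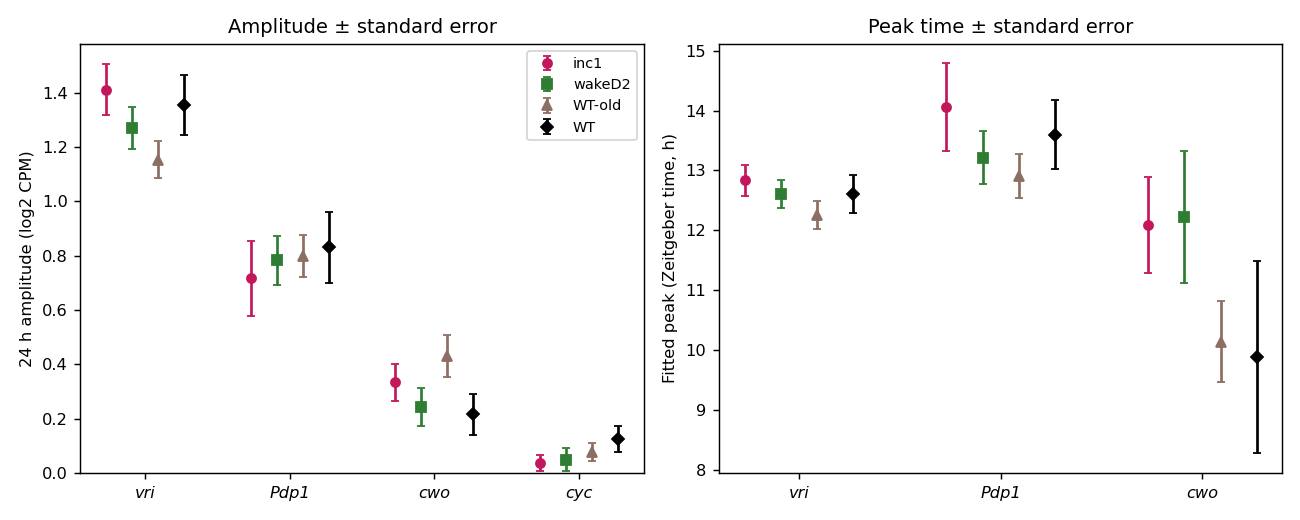
Amplitude of the 24 h cosine in log2 CPM (left, from 0) and its fitted peak in Zeitgeber hours (right; *cyc* left out, as it had no rhythm), with standard errors, for *inc1*, *wakeD2*, *WT-old* and *WT* from left to right. *cwo* has its peak at 12.1 ± 0.80 and 12.2 ± 1.10 h in *inc1* and *wakeD2*, and at 10.1 ± 0.68 and 9.88 ± 1.61 h in *WT-old* and *WT*. These fits use all timepoints of a group, 12 each except 10 in *WT*. On the 10 shared timepoints the peaks are at 11.7, 11.3, 9.40 and 9.88 h in the same order.

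Amplitude and peak time of *vri*, *Pdp1* and *cwo* were then compared singly, by an exact permutation test that exchanges the groups within the 10 shared timepoints. The comparisons made 24 tests without adjustment, of which 6 had p under 0.05, and the smallest p they allow is 0.00195. The tests share libraries between comparisons and were run on these genes only. The share of all genes with such p is therefore not known, and the count cannot be set against it. The amplitude of *vri* was 1.14 in *WT-old* and 1.36 in *WT* (difference -0.22 on the log2 scale, exact p = 0.029). The dark-hour pools of *WT-old* held few female heads, and the part of this in that difference was not tested. The *vri* amplitude was 1.27 in *wakeD2* and 1.41 in *inc1* (difference -0.14, exact p = 0.0156), although on the CPM scale the amplitudes were 166 CPM in *wakeD2* and 164 CPM in *inc1*. The amplitude of *Pdp1* was 0.71 in *inc1* and 0.83 in *WT* (difference -0.12, exact p = 0.045), and on the CPM scale the difference had an exact p of 0.80.

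For *cwo*, the amplitude was 0.44 in *WT-old* and 0.22 in *WT* (difference 0.22, exact p = 0.0059), and 0.22 in *wakeD2* and 0.31 in *inc1* (difference -0.0985, exact p = 0.0098). At ZT20 and ZT44, in *WT-old* pools with few female heads, *cwo* was at 81.1 and 69.3 CPM in *WT-old* and at 98.4 and 104.7 CPM in *WT*. At ZT0 and ZT24 it was at 90.5 and 93.2 CPM in *WT-old* and at 113 and 115 CPM in *WT*. The peak of *cwo* was fitted at 11.7 h in *inc1* and 9.88 h in *WT* (difference 1.80 h, exact p = 0.021). The highest library was nonetheless at ZT8 and ZT32 in both groups. At ZT12 and ZT36, *cwo* was at 160.4 and 148 CPM in *inc1* and at 128 and 126 CPM in *WT*.

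**Figure D4:**
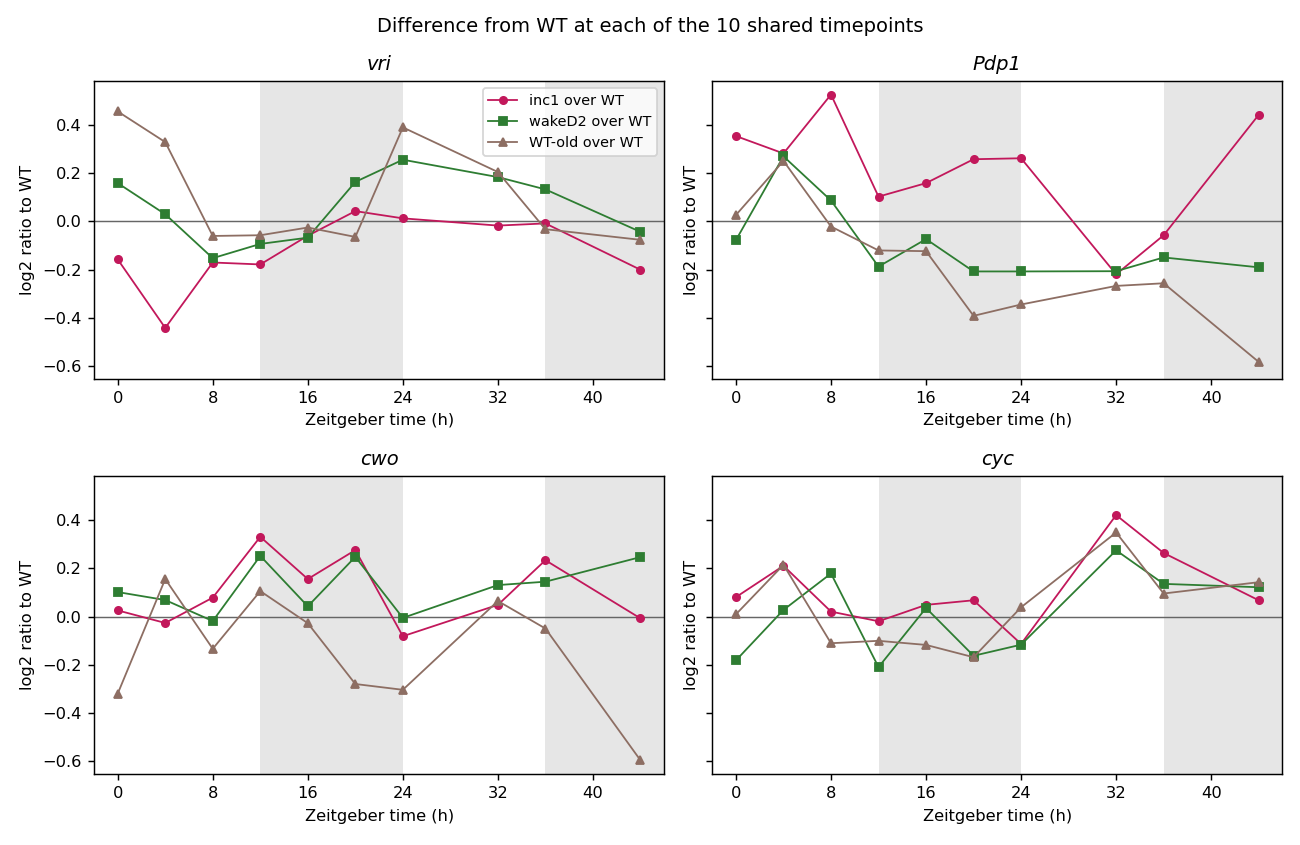
Log2 ratio of CPM in *inc1*, *wakeD2* and *WT-old* over *WT* at each of the 10 shared timepoints by Zeitgeber time, with dark hours shaded. *vri* of *WT-old* lies 0.33 to 0.46 above *WT* at ZT0, ZT4 and ZT24, and *Pdp1* of *inc1* lies above *WT* at 8 of 10 timepoints.

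Level over the whole day was compared next, with group and time of day in edgeR's model. *Pdp1* changed in more comparisons than the other genes. Its mean was 847 ± 310 CPM in *inc1* (SD, n = 12) and 762 ± 286 CPM in *WT* (n = 10), with overlapping groups because the SD holds the daily cycle. At matched hours it was higher in *inc1* at 8 of 10 timepoints, by a median of 0.26 on the log2 scale. The fitted log2 fold change was 0.20 (standard error 0.0617, adjusted p = 0.011). On the first sampling day it was 0.29 (adjusted p = 0.011) and on the second 0.094 (adjusted p = 0.61). The largest single difference, 0.53, came at ZT8, from the *inc1* library of lowest depth. That library also had the highest neuron marker sum, 5576 CPM in *inc1* against 3836 CPM at the same hour in *WT*, and without it the fold change was 0.18 (adjusted p = 0.020). The 4 head fat body markers were all measured, and none was at 0 throughout. They include the yolk protein gene *Yp1*, so their sum is not separate from the yolk sum. They summed to a median of 46046.5 CPM in *inc1* (range 32877.8 to 67250.4) and 31062.9 CPM in *WT* (24546.3 to 37596.2). Their part in the *Pdp1* result was not tested.

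*vri* did not pass in *inc1*, with a log2 fold change of -0.11 (standard error 0.0534, adjusted p = 0.11) and values under those of *WT* at 8 of 10 timepoints. *cyc* passed narrowly: 42.1 ± 2.14 CPM in *inc1* (SD, n = 12) and 39.0 ± 3.39 CPM in *WT* (n = 10), a log2 fold change of 0.11 (standard error 0.0427, adjusted p = 0.049). The call on *cyc* was lost on leaving out any of 7 of the 12 timepoints, with the smallest fold change without ZT32, where *WT* had its lowest library at 31.5 CPM (0.080, adjusted p = 0.17). It was also lost without the libraries holding accessory gland markers (adjusted p = 0.33). *cwo* had a fold change of 0.095 (adjusted p = 0.16). Thus 2 of 4 genes were called in *inc1* against *WT*, both higher, where 33.5% of all genes were called (14.9% higher and 18.5% lower). *per* (-0.34), *tim* (-0.41) and *cry* (-0.28), all lower, were 3 of 4 core genes past the threshold, and of 10 kinases and other factors *sgg* was lower (-0.19) while *CkIIbeta* (0.11) and *mts* (0.11) were higher.

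In *wakeD2* none of the 4 genes was called against *WT*, where 23.3% of all genes were. Log2 fold changes were 0.055 for *vri*, -0.093 for *Pdp1*, 0.11 for *cwo* and 0.014 for *cyc*, with adjusted p of 0.52, 0.31, 0.13 and 0.86. The 95% intervals were -0.053 to 0.16 for *vri*, -0.22 to 0.032 for *Pdp1*, 0.0059 to 0.22 for *cwo* and -0.072 to 0.10 for *cyc*, and unadjusted p was under 0.05 for *cwo* alone (0.039). DESeq2 also called 0 of the 4. Of the core genes only *cry* was called (-0.26), and 0 of 10 kinases and other factors were.

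**Figure D5:**
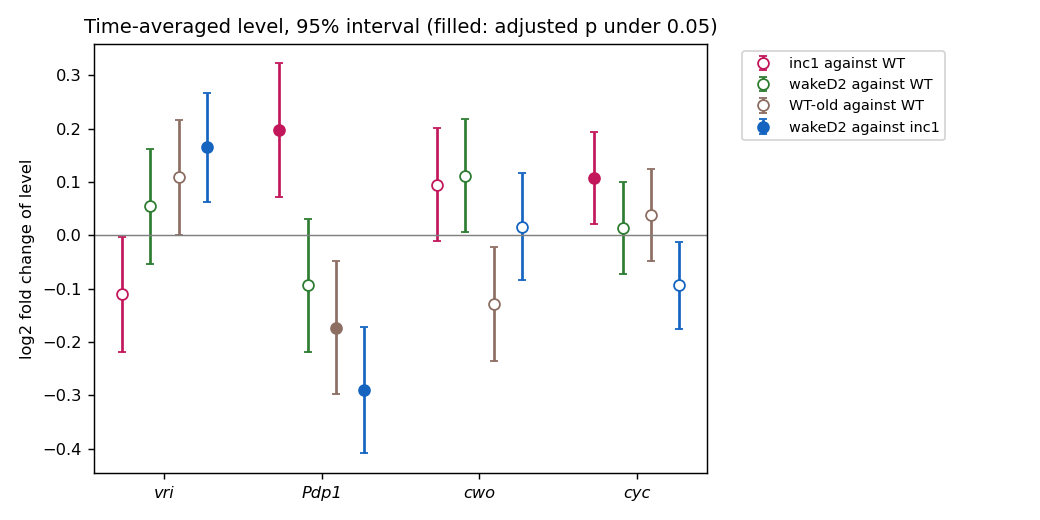
Log2 fold change of the time-averaged level (vertical axis) with its 95% interval, for each gene and, from left to right, *inc1*, *wakeD2* and *WT-old* against *WT* and *wakeD2* against *inc1*. Filled points passed an adjusted p of 0.05: *Pdp1* in 3 comparisons, *cyc* in 1 and *vri* in 1.

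Between the mutants, *Pdp1* was lower in *wakeD2* at 11 of 12 timepoints, with 698 ± 259 CPM in *wakeD2* and 847 ± 310 CPM in *inc1* (SD, n = 12 each). The log2 fold change was -0.29 (standard error 0.0585, adjusted p = 0.00015). *vri* was higher in *wakeD2* at 11 of 12 timepoints, with 224 ± 126 CPM in *wakeD2* and 207 ± 126 CPM in *inc1*, a log2 fold change of 0.17 (standard error 0.0507, adjusted p = 0.0092). These were 2 of 4 genes, where 40.7% of all genes were called (22.1% higher and 18.5% lower). *cyc* (-0.093, adjusted p = 0.061) and *cwo* (0.017, adjusted p = 0.83) did not pass. *per* (0.21) and *tim* (0.30) were called higher among core genes. Among the 10 kinases and other factors *dbt* (0.13), *sgg* (0.13) and *nmo* (0.15) were higher, and *CkIIalpha* (-0.083), *CkIIbeta* (-0.13) and *mts* (-0.15) were lower. Accessory gland markers were in 11 of 12 *wakeD2* and 4 of 12 *inc1* libraries. Without those libraries, which left 1 in *wakeD2*, the fold change was -0.23 for *Pdp1* (adjusted p = 0.75) and 0.24 for *vri* (adjusted p = 0.71). The 4 head fat body markers, *Yp1* among them, summed to a median of 37496.8 CPM in *wakeD2* (range 29800.9 to 46159.6) and 46046.5 CPM in *inc1* (32877.8 to 67250.4). Their part in these results was not tested.

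In *WT-old*, *Pdp1* was called lower, at 659 ± 254 CPM against 762 ± 286 CPM in *WT* (SD, n = 12 and 10). The log2 fold change was -0.17 (standard error 0.0617, adjusted p = 0.031), 1 of 4 genes called where 28.7% of all genes were (14% higher and 14.7% lower). *Pdp1* was lower at 8 of 10 timepoints, and the largest differences, -0.58 and -0.39, were at ZT44 and ZT20, in pools with few female heads. At the other shared dark hours, ZT12, ZT16 and ZT36, they were -0.12, -0.12 and -0.26. At light hours they were 0.027, 0.25 and -0.021 at ZT0, ZT4 and ZT8, and -0.34 and -0.27 at ZT24 and ZT32. The part of female share in them was not tested. Over the light hours alone (ZT0, ZT4 and ZT8 of both days), where yolk gene sums in *WT-old* were near those of *WT*, the fold change was -0.059 (adjusted p = 0.73). The fold change of *vri* was 0.11 over all hours (standard error 0.0535, adjusted p = 0.13) and 0.28 over the light hours (adjusted p = 0.0084), an alternative chosen after the data had been seen. At ZT0, ZT4 and ZT24, *vri* was at 83.7, 132.5 and 77.1 CPM in *WT-old* and at 61.0, 105.5 and 58.8 CPM in *WT*. At ZT12 and ZT36 it was at 368.5 and 365.1 CPM in *WT-old* and at 383 and 373 CPM in *WT*, above *WT* at the trough hours and below it at lights off. *cwo* (-0.13, adjusted p = 0.062) and *cyc* (0.038, adjusted p = 0.55) did not pass. Among the other lists *Clk* (-0.13), *sgg* (-0.19) and *tws* (-0.13) were called lower.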

How the data were processed

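Heads were pooled per group and timepoint, and RNA was sequenced as single reads from stranded mRNA libraries. The authors aligned reads with STAR 2.4.2a to Release 6 and deposited raw read counts per gene made with featureCounts, without normalization. How the counting treated strand was not given in the sources used here. Symbols were matched for 17288 of 17490 IDs. Genes under 1 CPM in more than 28 of 46 libraries were removed, counts were scaled by TMM, and log2 CPM used a prior count of 2. Tests were edgeR 4.0.16 quasi-likelihood fits (R 4.3.3) on all 46 libraries, with a threshold of 0.05 after Benjamini-Hochberg adjustment, checked on simulated data. Amplitudes came from least-squares cosines with a period of 24 h (Python 3.11.15, numpy 2.4.6, scipy 1.17.1). Single amplitudes and peaks were compared by all 1024 exchanges of values centred within group. DESeq2 1.42.0 and JTK cycle (18 combinations of period and lag, a form set after the study's lists had been looked at) were alternatives. The genes named were the 4 members, the genes of both fixed lists past the threshold, and the 3 nearest patterns per member. Members and lists were chosen with earlier results of these data known. No 2 libraries of a group agreed within sampling noise (smallest chi-square per degree of freedom 5.94). Nothing says that pools came from separate cultures, so p-values measure the spread between these pools.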

Additional observations from a re-analysis of the deposited data

Results flagged for a closer look

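Of the 4 genes, 2 differed between the mutants in time-averaged level by edgeR's test of the direct contrast. In *wakeD2* against *inc1*, *vri* had a log2 fold change of 0.17 and *Pdp1* one of -0.29. Further differences between groups came from the exact permutation tests of amplitude and peak, 6 of 24 with p under 0.05 and none adjusted. These tests share libraries and have no share over all genes to set the count against. In *vri* the amplitude difference (log2) was -0.22 for *WT-old* against *WT* and -0.14 for *wakeD2* against *inc1*. In *Pdp1* it was -0.12 for *inc1* against *WT*. In *cwo* it was 0.22 for *WT-old* against *WT* and -0.0985 for *wakeD2* against *inc1*, and the peak was 1.80 h later in *inc1* than in *WT*. In edgeR's test of the whole 24 h rhythm, without a block for the collection timepoint, none of these differences passed. In *WT-old*, hour of day and share of female heads cannot be told apart, and the part of this in its amplitude differences was not tested. No *WT* library stood apart for any of the 4 genes, by a rule that sets the gap next to an extreme value against the range. For *vri*, *Pdp1* and *cwo* that range holds the daily cycle, so a library unusual only for its hour could be missed. Groups of 12 were not examined by this rule.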

How the results depend on the processing

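Each 24 h rhythm of *vri*, *Pdp1* or *cwo* called by edgeR was also called when any 1 timepoint was left out, and so did *Pdp1* and *vri* in *wakeD2* against *inc1* in level. Depth limits *cyc* most, at 449 counts in its lowest library.

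For level, in this paragraph and the next, values in brackets are log2 fold changes, not p-values. *Pdp1* in *inc1* against *WT* missed the threshold with a 24 h cosine per group (0.17) and on the second sampling day (0.094). *cyc* in *inc1* against *WT* missed it without a filter (0.12), with the 10 shared timepoints (0.10), on the first (0.075) and second (0.19) sampling day, at light hours (0.15) and without the libraries holding accessory gland markers (0.070). *Pdp1* in *WT-old* against *WT* missed it without a filter (-0.17), with a cosine per group (-0.22), with the 10 shared timepoints (-0.16), on the first (-0.053) and second (-0.30) day, at light hours (-0.059) and without accessory gland libraries (-0.15). For *wakeD2* against *inc1*, *vri* missed it with a cosine per group (0.17), on the first (0.16) and second (0.17) day and without accessory gland libraries (0.24), and *Pdp1* on the second day (-0.27) and without accessory gland libraries (-0.23). That last setting left 1 *wakeD2* library, assumed to vary like the other groups, and gave no rhythm difference for *wakeD2*.

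*cwo* passed with upper quartile scaling in *inc1* (0.13) and *wakeD2* (0.13) against *WT*, and without a filter in *wakeD2* (0.13). *vri* passed at light hours in *WT-old* (0.28), and *cyc* in *wakeD2* against *inc1* without the *inc1* library of lowest depth (-0.11). Signs turned in results that had not passed: *cwo* without accessory gland libraries in *wakeD2* against *WT* (-0.016) and against *inc1* (-0.13), *cwo* on the first day in *wakeD2* against *inc1* (-0.022), *cyc* on the first day in *wakeD2* (-0.039) and *WT-old* (-0.034) against *WT*, and *cyc* in *WT-old* without accessory gland libraries (-0.012). Leaving out 1 timepoint gave *cyc* 0.080 to 0.14 in *inc1*, -0.012 to 0.037 in *wakeD2* and -0.12 to -0.080 in *wakeD2* against *inc1*. It gave *Pdp1* -0.20 to -0.14 and *cwo* -0.15 to -0.089 in *WT-old*, and *cwo* -0.0064 to 0.027 in *wakeD2* against *inc1*. *Pdp1* in *WT-old* lost its call in 8 of 12 such fits.

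For rhythm, values in brackets are adjusted p. JTK cycle adjusted over all genes missed the threshold for *vri* in *inc1* (0.084) and *WT* (0.22). It also missed it for *Pdp1* in *inc1* (1), *wakeD2* (0.19), *WT-old* (0.085) and *WT* (0.31), and for *cwo* in *inc1* (1) and *WT-old* (0.17). In *inc1* and *WT*, JTK cycle missed *per*, *tim*, *Clk* and *cry* as well, all called by edgeR's 24 h test. In *WT*, *per* was at 0.16, *tim* at 0.31 and *cry* at 0.61. *per* passed in *wakeD2* (0.019) and *WT-old* (0.022), and *cry* in *WT-old* (0.034). A miss by JTK cycle is thus no evidence here that a rhythm was absent. The cosine F test missed the threshold for *Pdp1* (0.070) and *cwo* (0.099) in *inc1*. *cwo* in *wakeD2* passed with upper quartile scaling (0.049), 12 h terms (0.047), DESeq2 (0.048) and 6 times of day (8.1e-06), as it did in *WT* with 6 times of day (3.0e-05). On the CPM scale the amplitude difference of *vri* was -6.26 CPM in *inc1* against *WT* and 1.99 CPM in *wakeD2* against *inc1*, and that of *Pdp1* was -16.8 CPM in *inc1* against *WT* and -34.0 CPM in *wakeD2* against *inc1*. The cause of these changes was not tested.

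The collection timepoint as a replicate block gave *cyc* 0.10 in level in *inc1* against *WT*, which lost its call, and *vri* an adjusted p of 0.047 for the rhythm difference in *WT-old* against *WT*, which then passed. It changed no other call. Libraries sharing a timepoint did not deviate together in every pair: r of their deviations was -0.109 to 0.868 (mean 0.194) in *inc1*, -0.917 to 0.140 (mean -0.339) in *wakeD2* and -0.207 to 0.164 (mean 0.0097) in *WT-old* against *WT*, and -0.711 to 0.507 (mean -0.137) in *wakeD2* against *inc1*.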
